A study of Mus musculus with 16 samples.

Results

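The genes described here are 10 genes of iron handling in mouse liver and kidney, chosen by name: the hepcidin genes Hamp and Hamp2, their regulators Bmp6, Hfe and Tfr2, the carrier and uptake genes Trf and Tfrc, the iron exporter Slc40a1, and the ferritin chains Fth1 and Ftl1. All 10 were found among the 32989 genes of the tables, each in a single row. The samples were liver and kidney of the same 8 male C57BL/6J mice, aged 97 weeks, after 85 weeks in one of 2 light conditions. In the control condition (LD) the light period was constant, from 8:00 to 20:00, and in the chronic jet-lag condition (ADV) the light–dark cycle was advanced by 8 hours every 4 days. Each condition held 4 mice, named L63, L65, L86 and L104 for LD and A75, A91, A94 and A115 for ADV, and each organ of a mouse gave 1 poly(A) RNA-seq library, which makes 16 libraries. The labels name no other allele or agent. The samples were whole tissue, so that fewer cells of a type and less RNA per cell cannot be told apart in any value below.

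Iron leaves cells through ferroportin, the product of Slc40a1, and hepcidin, a peptide hormone made mainly by hepatocytes, binds ferroportin and causes its removal from the cell surface. Hepcidin transcription in the liver rises with BMP signals, of which Bmp6 from sinusoidal endothelial cells is a main ligand, and with cytokines of the interleukin 6 type acting through STAT3. The proteins of Hfe and Tfr2 take part in sensing iron-loaded transferrin, the product of Trf, which cells take up through transferrin receptor 1 (Tfrc). Ferritin, assembled from the heavy chain Fth1 and the light chain Ftl1, stores iron inside the cell. Mice have a pair of hepcidin genes, and iron regulation is known for Hamp, whereas Hamp2 lacks that role.

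Hamp (chr7:30942368-30944017, GRCm38/mm10) and Hamp2 (chr7:30922372-30924181) lie next to each other on the minus strand. Their transcripts in GENCODE vM21 were 89.0% identical over an alignment of 437 columns. The 250 bases before the RefSeq start of each gene (GRCm38.p6) are shown because levels of the pair differed in size and in spread among the livers. Capitals mark matches, on either strand, to the letters GGCGCC, the core of the BMP-responsive element, and TTCNNNGAA, the palindrome bound by STAT factors.
Hamp, chr7:30944030-30944279, minus strand: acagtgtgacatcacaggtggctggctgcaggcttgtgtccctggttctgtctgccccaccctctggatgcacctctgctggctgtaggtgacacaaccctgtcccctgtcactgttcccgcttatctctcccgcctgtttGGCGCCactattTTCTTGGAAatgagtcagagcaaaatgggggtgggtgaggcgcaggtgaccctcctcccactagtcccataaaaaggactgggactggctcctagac
Hamp2, chr7:30924182-30924431, minus strand: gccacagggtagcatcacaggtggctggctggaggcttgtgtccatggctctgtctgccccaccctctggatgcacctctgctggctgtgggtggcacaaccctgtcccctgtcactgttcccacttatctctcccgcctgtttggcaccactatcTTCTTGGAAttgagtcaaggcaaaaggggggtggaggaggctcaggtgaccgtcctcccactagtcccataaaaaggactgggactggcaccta

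These windows were 89.7% identical. The letters GGCGCC began 109 bases before the start of Hamp and were not in the Hamp2 window, where the aligned bases carry the substitution G106A, with positions counted back from the start of Hamp and the base of Hamp first. TTCNNNGAA was present in both, as TTCTTGGAA, ending 89 bases before the start of Hamp and 86 bases before that of Hamp2. Among 32851 promoters of the same length, 9.59% held GGCGCC and 7.02% held TTCNNNGAA. Promoter entries existed for 8 of the 10 genes, and none was given for Trf or Slc40a1. Of the other genes, Tfrc also held GGCGCC. The E-box CACGTG, bound by CLOCK and BMAL1, was found in Bmp6 and in none of the other 7 genes with an entry, against 6.02% of all promoters, and TGACNNNGC, the letters of an antioxidant response element, was found in Bmp6 and Hfe, against 10.2%. These matches are descriptions of letters and do not show binding.

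Iron also acts on 4 of the genes after transcription, through stem-loops bound by the iron regulatory proteins IRP1 and IRP2. Such a loop in the 5′ UTR lowers translation when iron is scarce, and loops in the 3′ UTR of Tfrc protect its mRNA. Stem-loops with an unpaired C, 5 paired bases and the loop CAGTGN were sought in the longest coding transcript of each gene, with G–T pairs allowed, a search chosen after the values had been seen, and 1.24% of 21877 genes held at least 1. They were found once in the 5′ UTR of Fth1, Ftl1 and Slc40a1 and 4 times in the 3′ UTR of Tfrc, and are printed 5′ to 3′ on GRCm38 with the loop in capitals.
Fth1, chr19:9982738-9982754, plus strand: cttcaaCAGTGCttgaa
Ftl1, chr7:45459785-45459801, minus strand: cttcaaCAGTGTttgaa
Slc40a1, chr1:45925471-45925487, minus strand: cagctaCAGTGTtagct
Tfrc, chr16:32631225-32631241, plus strand: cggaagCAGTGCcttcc
Tfrc, chr16:32631604-32631620, plus strand: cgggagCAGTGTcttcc
Tfrc, chr16:32631669-32631685, plus strand: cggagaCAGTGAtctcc
Tfrc, chr16:32631716-32631732, plus strand: cgggaaCAGTGTttccc

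The liver libraries held between 21092501 and 24285055 fragments on genes and the kidney libraries between 15688495 and 18043306, at least 91.2% of each library. All values below are FPKM, fragments per kilobase of exon scaled to the total of the library, as deposited, and the log2 fold changes are on the log2(FPKM + 0.1) scale. Of 6 proximal tubule markers 4 (Slc34a1, Slc5a12, Slc22a6 and Kap) were at 0 in all 8 livers, and the summed FPKM of the 6 was between 18388 and 46350 in kidney and at most 0.112 in liver. The summed FPKM of 7 hepatocyte markers was between 59030 and 72623 in liver and between 711 and 1075 in kidney, where 1 of the 7, Cps1, was at 0 in all 8 libraries. Libraries stood apart in both organs. The kidney library of A115 correlated least with the rest, with a mean r across genes of 0.805 against 0.908 or more for every other kidney, and had 33.8% of its gene fragments on mitochondrial genes. This share was between 15.7% and 18% in the LD kidneys and between 9.43% and 13.1% in the other 3 ADV kidneys, all below the LD kidneys, and its part in the kidney values was not tested. In the liver of A94 the summed FPKM of 7 lymphocyte markers was 49.0, against 1.51 to 3.67 in the other 7 livers. The kidney of A94 stood apart in the same markers, at 54.1 against 2.51 to 8.15 in the other 7 kidneys, and the sum of its 10 macrophage markers was 317 against 27.2 to 152. A94 was the highest of the 8 kidneys for Tfrc, Trf, Hfe, Slc40a1 and Ftl1, and the part of these cells in the kidney values was not tested. Sequencing was split over a pair of providers and instruments, and the labels do not assign libraries to them. Such a batch can therefore not be told apart from the condition or from the organ.

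Hamp was one of the more abundant of the genes in liver and was at 0 in every kidney. In the LD livers it was 309, 358, 509 and 377 FPKM in L63, L65, L86 and L104, and in the ADV livers 475, 365, 191 and 572 FPKM in A75, A91, A94 and A115. The ADV livers held both the lowest and the highest value of the 8, and the groups overlapped. The means were 388 ± 85.6 (SD, n = 4) in LD and 401 ± 164 (SD, n = 4) in ADV. The log2 fold change of ADV over LD was −0.04 with a standard error of 0.31 and a 95% interval from −0.75 to 0.66 (limma, Benjamini-Hochberg adjusted p = 0.961). Its direction depended on single mice, with 0.28 without A94, the liver with the lowest Hamp, and −0.25 without A115. No difference in Hamp between the conditions was therefore detectable, and the interval still admits changes of over 0.6 on the log2 scale in either direction.

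Hamp2 (434 bases of exon) varied far more among the mice. It was 25, 17.9, 15.9 and 10.2 FPKM in L63, L65, L86 and L104, and 9.60, 52.2, 3.34 and 2.04 FPKM in A75, A91, A94 and A115. The highest liver was 25.6-fold above the lowest, whereas this ratio was 3.0 for Hamp. Hamp exceeded Hamp2 in every liver, by 6.99-fold in A91 and by 281-fold in A115, and by 12.4-fold to 36.9-fold in the LD livers. The log2 fold change of Hamp2 was −1.08 with a standard error of 0.85 (limma, adjusted p = 0.578). It depended on single ADV mice, with −2.0 without A91 and −0.46 without A115. Because the authors removed reads of low mapping quality, fragments shared by the pair would be lost from both genes, and the split of reads between them is uncertain.

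**Figure D1:**
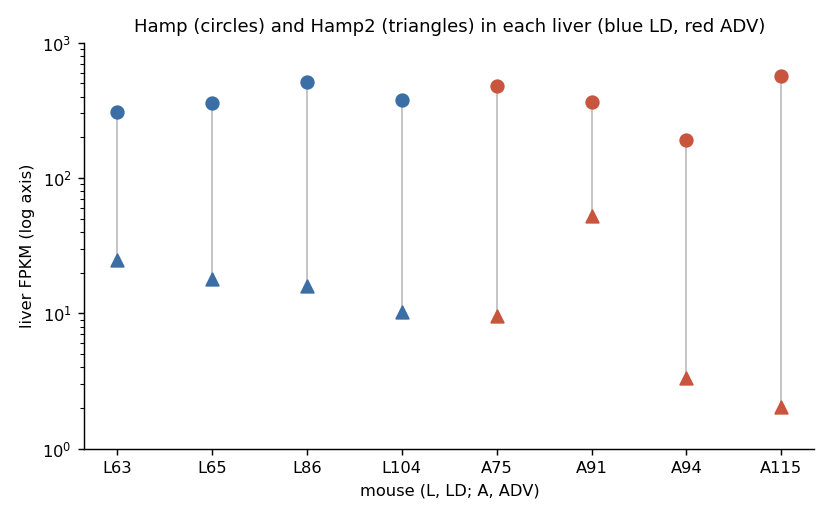
Liver FPKM of Hamp (circles) and Hamp2 (triangles) in the 4 LD (blue) and 4 ADV (red) mice on a log axis, with a grey line joining the values of a mouse. Hamp lay between 191 and 572 FPKM, whereas Hamp2 ran from 2.04 to 52.2 FPKM.

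Among the regulators of hepcidin, Bmp6 (chr13:38345716-38500314) was low in liver and overlapped between conditions. Its liver values were 1.24, 1.09, 1.5 and 1.33 FPKM in the LD mice and 0.807, 1.32, 1.0 and 1.36 FPKM in the ADV mice in the order above. The lowest value belonged to A75, and the log2 fold change was −0.21 with a standard error of 0.19 (limma, adjusted p = 0.639). In kidney Bmp6 was 19.5, 18.8, 27.4 and 18.8 FPKM in LD and 23.2, 24.4, 26.3 and 21.1 FPKM in ADV. The groups overlapped there because of L86, and the log2 fold change was 0.18 with a standard error of 0.17 (limma, adjusted p = 1.0).

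Hfe (chr13:23703841-23710811), mutated in the common hereditary form of haemochromatosis, was higher in every ADV liver than in any LD liver by a small margin. It was 22.3, 24, 22.1 and 21.8 FPKM in the LD livers and 25.1, 25.4, 27.2 and 25.3 FPKM in the ADV livers. The log2 fold change was 0.19 with a standard error of 0.08, which did not pass adjustment (limma, adjusted p = 0.407). With libraries scaled by the median ratio of genes it was 0.09, and the median of all 12835 genes tested was 0.10 with the deposited scaling. Of these 12835 genes, 6.94% had every ADV liver above every LD liver. In kidney Hfe was 10.1, 8.89, 10.6 and 8.08 FPKM in LD and 15.4, 10.8, 17.1 and 6.21 FPKM in ADV. The 3 other ADV kidneys lay above all LD kidneys, with the highest value in A94, and A115 lay below them.

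Tfr2 (chr5:137570805-137588081), the second transferrin receptor, overlapped between the conditions in both organs. Its liver values were 67.7, 72.8, 84.1 and 80.1 FPKM in LD and 78.9, 57.2, 61.6 and 76.9 FPKM in ADV, with a log2 fold change of −0.16 and a standard error of 0.13 (limma, adjusted p = 0.592). In kidney it was low, with 191.5 fragments over the 8 libraries, at 0.138, 0.222, 0.327 and 0.178 FPKM in LD and 1.38, 0.270, 0.449 and 0 FPKM in ADV.

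Tfrc (chr16:32608896-32632794), the receptor for uptake of transferrin iron, had a higher mean in ADV in both organs without passing adjustment in either. In liver it was 20.0, 22.1, 13.6 and 11.8 FPKM in LD and 17.8, 21.0, 27.3 and 28.4 FPKM in ADV. The ranges overlapped through L63 and L65, and the log2 fold change was 0.50 with a standard error of 0.23 (limma, adjusted p = 0.426). In kidney it was 15.3, 21.4, 17.7 and 16.3 FPKM in LD and 19.6, 24.4, 29.4 and 25 FPKM in ADV. Here the LD mouse L65 lay within the ADV range, and the log2 fold change was 0.47 with a standard error of 0.18 (limma, adjusted p = 1.0; two-sided exact permutation p = 0.0571). Without A94, the highest kidney, it was 0.38 (limma, adjusted p = 1.0). Without A115 and with median-ratio scaling it was 0.26, with an unadjusted p of 0.158 (limma).

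Trf (chr9:103208876-103230286), which encodes the plasma iron carrier transferrin, was the most abundant of the genes in liver. It was 5324, 5790, 7455 and 5534 FPKM in LD and 6074, 4653, 5291 and 7289 FPKM in ADV. The ranges overlapped almost wholly, with a log2 fold change of −0.06 and a standard error of 0.21 (limma, adjusted p = 0.917). In kidney Trf was 12.3, 13.2, 17.1 and 10.1 FPKM in LD and 20.3, 13.4, 32.8 and 10.2 FPKM in ADV, again with overlap.

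Slc40a1 (chr1:45908070-45925594), which encodes ferroportin, showed the clearest separation of the conditions among the genes in liver. It was 36.1, 36.2, 43.2 and 42.5 FPKM in the LD livers and 47.2, 53.5, 59.9 and 57.7 FPKM in the ADV livers. Every ADV liver lay above every LD liver, as for 6.94% of all genes tested in liver. The means were 39.5 ± 3.91 (SD, n = 4) in LD and 54.6 ± 5.58 (SD, n = 4) in ADV. The log2 fold change was 0.47 with a standard error of 0.11 and an unadjusted p of 0.00191 in the limma fit, and it did not pass adjustment over all genes (adjusted p = 0.296). The two-sided exact permutation p was 0.0286, the smallest that 4 mice against 4 allow. With median-ratio scaling the log2 fold change was 0.36 and the adjusted p 0.234 (limma), and without single mice it lay between 0.42 and 0.53.

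The markers of macrophages, cells that carry much ferroportin, moved in the same direction as Slc40a1 in liver. All 10 markers of Kupffer cells and macrophages had a higher mean in the ADV livers, and their summed FPKM was between 153 and 205 in LD and between 208 and 737 in ADV. The highest sum belonged to A94, and without A94 the log2 fold change of Slc40a1 was 0.42 (limma, adjusted p = 0.173). The summed FPKM of 8 sinusoidal endothelial markers was between 98.2 and 107 in LD and between 105 and 135 in ADV. The part of these cells in the result was not tested. In kidney 8 of the 10 macrophage markers also had a higher mean in ADV. Their sum there was between 35.6 and 89.9 FPKM in LD (median 46.3) and between 27.2 and 317 in ADV (median 101). In kidney Slc40a1 was 15.0, 12.2, 17.5 and 15.0 FPKM in LD and 15.9, 12.6, 17.8 and 16.1 FPKM in ADV, and the groups overlapped almost wholly (log2 fold change 0.06, or −0.01 without A94, standard error 0.17 with all 8 kidneys, limma adjusted p = 1.0).

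**Figure D2:**
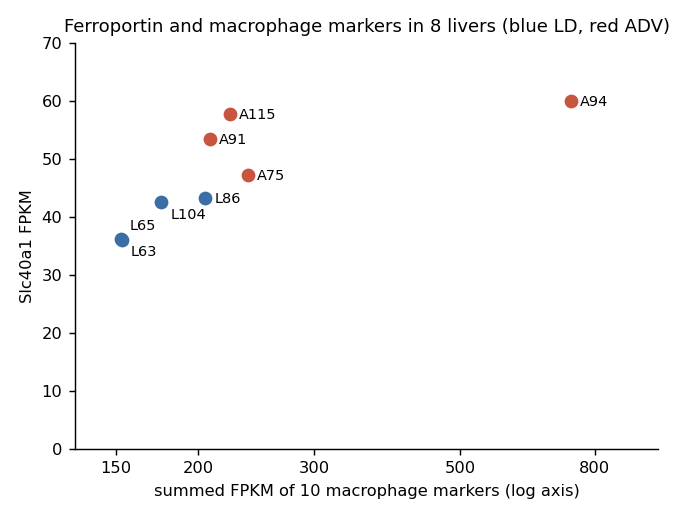
Slc40a1 in liver (FPKM) against the summed FPKM of 10 Kupffer cell and macrophage markers (log axis) in the 4 LD (blue) and 4 ADV (red) mice. The ADV livers lie at or above 47.2 FPKM with marker sums from 208 to 737, and the LD livers at or below 43.2 FPKM with sums from 153 to 205.

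The ferritin chains were close to level between the conditions in liver. Fth1 (chr19:9980600-9985111) was 637, 683, 735 and 641 FPKM in the LD livers and 563, 710, 800 and 659 FPKM in the ADV livers. Ftl1 (chr7:45457944-45459886) was 1537, 1751, 1892 and 1568 FPKM in LD and 1300, 1639, 2159 and 1576 FPKM in ADV. The chains ranked the livers alike at both ends, with A75 lowest and A94 highest for each. Their ratio, Ftl1 over Fth1, stayed between 2.31 and 2.70. The log2 fold changes were 0.01 for Fth1 and −0.03 for Ftl1, with standard errors of 0.13 and 0.17 (limma, adjusted p = 0.977 and 0.942). Processed pseudogenes of both ferritin genes are known, so that the counts may lack fragments that map to several copies.

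In kidney both chains had higher values in ADV except in a single library. Fth1 was 2135, 2177, 2449 and 2383 FPKM in LD and 2953, 2543, 2682 and 2492 FPKM in ADV. Every ADV kidney lay above every LD kidney, as it did for 0.962% of the 14452 genes tested in kidney. Its log2 fold change was 0.22 with a standard error of 0.18 (limma, adjusted p = 1.0), or 0.06 without A115 and with median-ratio scaling. Ftl1 was 1172, 1246, 1511 and 1650 FPKM in LD and 1895, 2361, 2584 and 58.3 FPKM in ADV. The value of A115 was 28.3-fold below the median of the other 7 kidneys, while its Fth1 was the lowest of the ADV kidneys and above all LD kidneys. The ratio of Ftl1 to Fth1 was between 0.549 and 0.963 in the other kidneys and 0.0234 in A115.

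The low Ftl1 of A115 accompanied a library-wide pattern, which was looked for after its value had been seen. Among the 290 genes with a mean of at least 200 FPKM in kidney, Ftl1 had the largest deviation of A115 below the median of the other kidneys, and 60 of these genes were lower by more than 2 on the log2 scale. Across 13805 genes the deviation of A115 had a Pearson correlation of −0.716 with the GC content of the transcript. In the fifth of genes with the lowest GC content its median deviation was 0.46, and in the fifth with the highest it was −2.04. The other kidneys had correlations between −0.418 and −0.018 in LD and between 0.340 and 0.560 in ADV, and the livers between −0.243 and 0.199, so that GC content also went with the condition in kidney. Genes of like GC content differed in A115. Ftl1, at 58.1% GC, deviated by −4.82 on the log2 scale, and Bmp6, at 57.8%, by −0.14. Tfr2, at 57.8% and low in kidney, deviated by −1.89. The part of GC content in the kidney values was not tested.

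**Figure D3:**
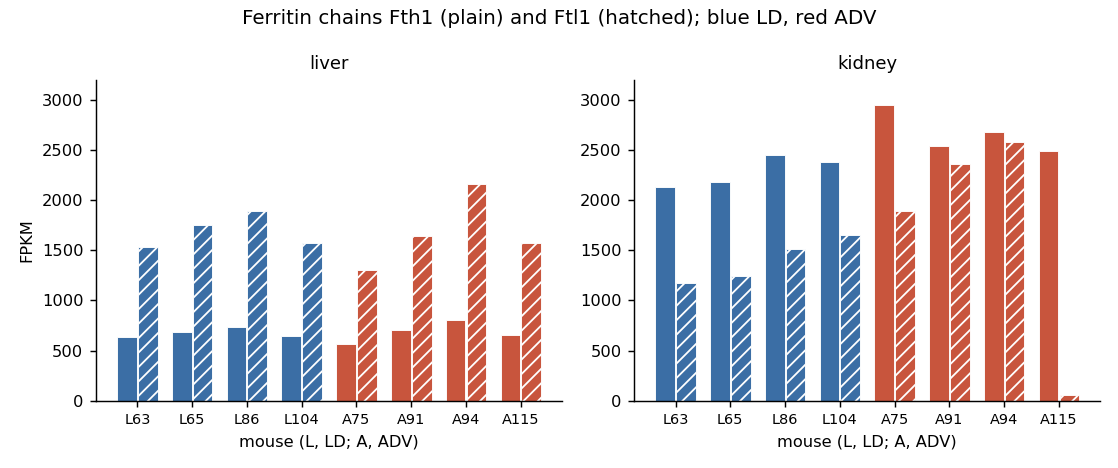
FPKM of the ferritin chains Fth1 (plain bars) and Ftl1 (hatched bars) in each mouse, liver left and kidney right, LD blue and ADV red. Ftl1 exceeded Fth1 in all livers and lay below it in all kidneys, with 58.3 FPKM in the kidney of A115.

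Counted together, none of the 10 genes passed an adjusted p of 0.05 in liver (limma), where 0.00779% of all genes tested did. At an unadjusted p under 0.05, 2 of 10 were higher in ADV, Slc40a1 and Hfe, and none lower, against 8.65% higher and 3.13% lower among all genes. The same 2 genes had ADV livers wholly above LD livers, which 6.94% of all genes had. The median log2 fold change of the 10 genes was −0.04, against 0.10 for all genes. With limma-voom on recovered fragments the count was also 0 of 10 in liver and 0 of 8 in kidney. In kidney 8 genes passed the filter on low values, Hamp and Hamp2 not, and none of the 8 passed adjustment (limma), as for all genes (0%). At an unadjusted p under 0.05 only Tfrc was higher and none lower, against 1.75% and 1.35% of all genes. The median log2 fold change of the 8 was 0.26, against −0.02 for all genes.

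Without the kidney of A115 the picture in kidney changed for all genes. Then 2 of 8 were higher in ADV at an adjusted p under 0.05 (limma), Ftl1 by 0.71 on the log2 scale (adjusted p = 0.0338) and Hfe by 0.59 (adjusted p = 0.0462). Of all genes 16.1% were called higher in that comparison and 2.68% lower. The median log2 fold change was 0.53 for the 8 genes and 0.20 for all genes. When the libraries were in addition scaled by the median ratio, 0 of 8 were called, against 16% of all genes. The median of the 8 was then 0.33, against 0.01 for all genes. At an unadjusted p under 0.05, 2 of 8 were higher and none lower in that limma fit, against 17.4% and 18.7% of all genes. Ftl1 then had 0.51 (limma, adjusted p = 0.0931) and Hfe 0.40 (adjusted p = 0.0829).

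**Figure D4:**
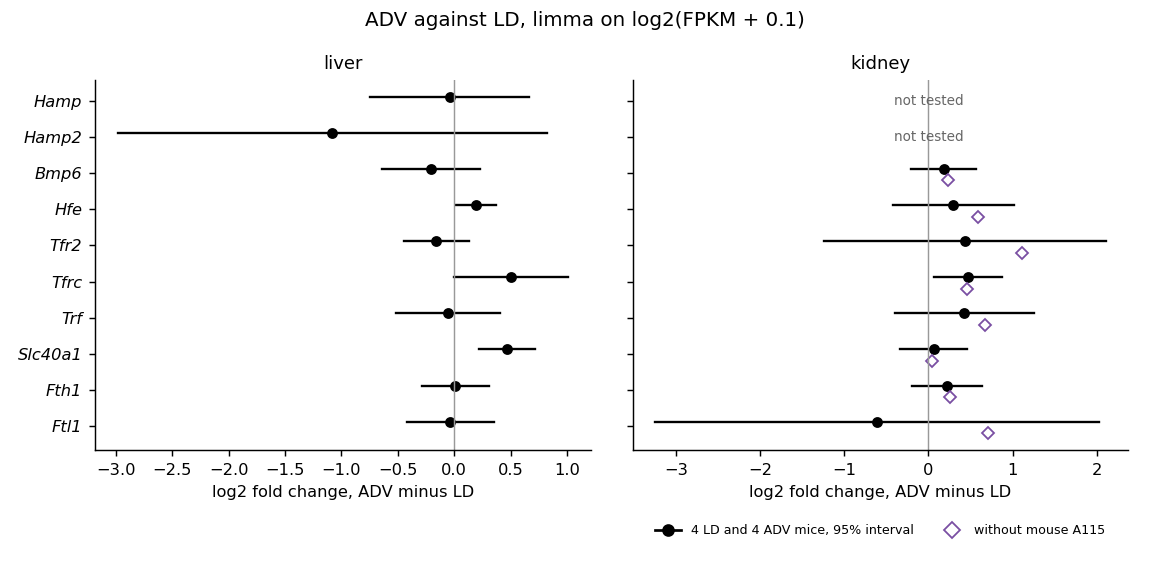
Log2 fold change of ADV over LD for each gene in liver (left) and kidney (right), with 95% intervals from limma over 4 LD and 4 ADV mice (black), and the kidney value without A115 (open diamonds). The interval excludes 0 for Slc40a1 and Hfe in liver and for Tfrc in kidney before adjustment for all genes, and Ftl1 in kidney moves from −0.61 to 0.71.

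The effect of the condition was compared between the organs in a fit of all 16 libraries. Hamp and Hamp2, with 0 and 1 fragment over the 8 kidneys, had no effect in kidney to compare. None of the other 8 genes differed at an adjusted p under 0.05 (limma), as 0% of the 12319 genes that passed the filter in both organs did, and none at an unadjusted p under 0.05, which 3.37% of those passed. The difference for Slc40a1, the effect in liver minus that in kidney, was 0.40 with a standard error of 0.20 and an unadjusted p of 0.0620 in that limma fit (adjusted p = 1.0). A difference between liver and kidney in the response of Slc40a1 was therefore not shown.

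The organs themselves differed in most of the genes. Of the 8 that passed the filter on low values in both organs, 4 were higher in liver and 2 higher in kidney at an adjusted p under 0.05 (limma). Of all 12319 such genes 71.2% were called, 12.1% higher in liver and 59.1% higher in kidney. Hamp and Hamp2 passed the filter through liver alone and are given as levels. Hamp was at 0 fragments in all 8 kidneys, and 3 fragments, the limit that a count of 0 allows, would be at most 0.447 FPKM in a kidney library. The lowest liver value of Hamp was thus at least 427-fold higher than that limit. Hamp2 gave 1 fragment in 8 kidneys, in A94. The mean of Tfr2 was 72.4 FPKM in liver and 0.370 in kidney, 196-fold higher (log2 fold change 7.65, standard error 0.38, limma adjusted p = 7.05e-11). That of Trf was 5926 and 16.2 FPKM, 367-fold higher in liver (limma, adjusted p = 9.03e-15). Liver also exceeded kidney in Slc40a1 by 3.08-fold (limma, adjusted p = 9.80e-10) and in Hfe by 2.21-fold (adjusted p = 8.49e-06), in 8 of 8 mice each.

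Kidney exceeded liver in the ligand Bmp6 and in the ferritin heavy chain. Bmp6 had a mean of 22.4 ± 3.39 FPKM in kidney and 1.21 ± 0.225 in liver (SD, n = 8), 18.6-fold higher in kidney (log2 fold change of liver over kidney −4.11, standard error 0.13, limma adjusted p = 1.61e-13). Fth1 was 3.65-fold higher in kidney (log2 fold change −1.87, standard error 0.11, limma adjusted p = 4.37e-10). Tfrc had means of 20.3 FPKM in liver and 21.1 in kidney, with a 95% interval of the log2 fold change from −0.41 to 0.24. Ftl1 had means of 1678 FPKM in liver and 1560 in kidney, or 1774 in kidney without A115. Each library was scaled to its own total, and all genes between the organs had a median of −0.75 on the log2 scale with this scaling and −0.03 with median-ratio scaling. With the latter Tfrc was higher in liver by 0.69 (limma, adjusted p = 0.00201) and Ftl1 by 1.35 (adjusted p = 0.0348), while the calls of the other 6 genes and their directions held.

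**Figure D5:**
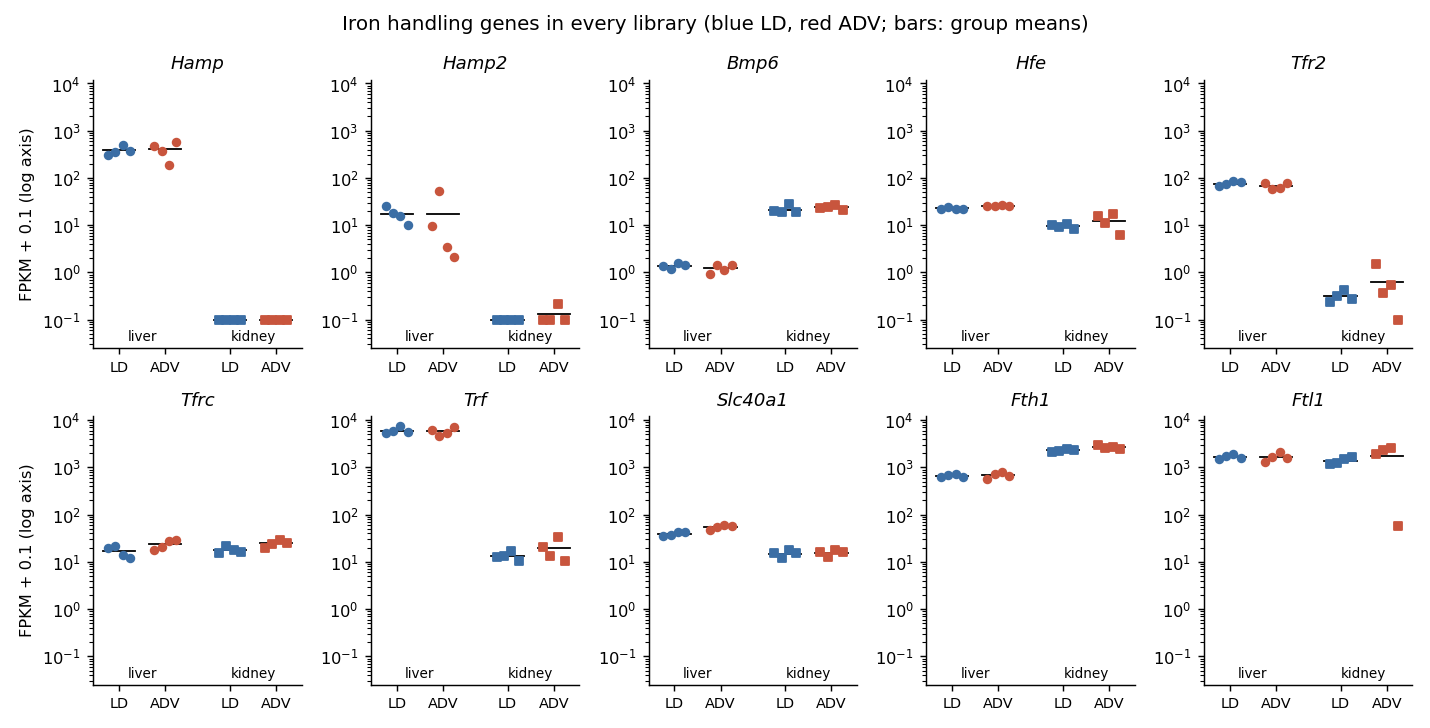
FPKM + 0.1 (log axis) of each gene in the 16 libraries, liver as circles and kidney as squares, LD blue and ADV red, with a bar at each group mean. Points at the lowest level, 0.1, are libraries listed at 0, which are all kidneys.

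In order of mean FPKM, a scale that divides by exon length, the livers held Trf at 5926, Ftl1 at 1678, Fth1 at 678, Hamp at 395, Tfr2 at 72.4, Slc40a1 at 47.0, Hfe at 24.1, Tfrc at 20.3, Hamp2 at 17 and Bmp6 at 1.21. The ranges over the 8 livers overlapped between Fth1 and Hamp, between Tfr2 and Slc40a1, and between the neighbours Hfe, Tfrc and Hamp2, while within each mouse Fth1 exceeded Hamp and Tfr2 exceeded Slc40a1 in 8 of 8 livers. Hfe exceeded Tfrc in 6 of 8 livers and Tfrc exceeded Hamp2 in 5 of 8, so that these neighbours did not differ beyond their spread. In kidney Fth1 at 2477 and Ftl1 at 1560 stood first, with Fth1 above Ftl1 in 8 of 8 mice. Bmp6, Tfrc, Trf, Slc40a1 and Hfe followed between 22.4 and 10.9 FPKM with overlapping ranges, although Slc40a1 exceeded Hfe in 8 of 8 mice, and Tfr2 at 0.370 was the last gene seen in more than 1 kidney.

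Other genes of iron metabolism were taken from 7 lists with 98 symbols, of which 96 were found and 89 tested in each organ. In liver 0 of 89 passed adjustment (limma), with 5 higher and 4 lower in ADV at an unadjusted p under 0.05, against 8.65% higher and 3.13% lower among all genes. The median log2 fold change was 0.07 over the 89 and 0.10 over all genes. These liver counts are with the deposited scaling. With median-ratio scaling the median of all genes was −0.002. Hmox2 then fell from 0.26 to 0.16, Pcbp2 from −0.26 to −0.36 and Il6ra from −0.57 to −0.67. Lower list genes outnumbered higher ones at the same limit in that limma fit, so that the balance of directions in liver depended on the scaling. The largest differences were those of Lcn2 and Cd163, neither past adjustment. Lcn2, a siderophore-binding acute phase protein, was 16.2 ± 10.5 FPKM in LD and 82.3 ± 82.0 in ADV (SD, n = 4; log2 fold change 2.01, limma adjusted p = 0.373). Cd163, the haemoglobin scavenger receptor of macrophages, was 1.37, 1.34, 1.12 and 2.22 FPKM in LD and 2.02, 4.02, 3.47 and 6.68 in ADV (1.29 on the log2 scale, limma adjusted p = 0.296). The ranges of Cd163 overlapped through L104 and A75. The ferroxidases also had higher means, Heph with a log2 fold change of 0.72 at no more than 1.02 FPKM and Cp at an unadjusted p under 0.05, and so did the haem oxygenase Hmox2.

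Genes with lower means in the ADV livers included Il6ra and Alas2. Il6ra, the interleukin 6 receptor through which cytokine reaches Hamp, was 15.4, 15.2, 18.5 and 19.6 FPKM in LD and 10.4, 11, 12.6 and 12.1 FPKM in ADV. Every ADV liver was below every LD liver, as for 1.89% of all genes, with a log2 fold change of −0.57 and a standard error of 0.12 (limma, unadjusted p = 0.000802, adjusted p = 0.247). Alas2, the erythroid enzyme that starts haem synthesis, was 62.3 ± 8.35 FPKM in LD and 43.2 ± 9.58 in ADV (SD, n = 4; log2 fold change −0.54, limma adjusted p = 0.313). The mitochondrial ferredoxin Fdx1 had −0.50 and the iron importer Slc25a28 was also lower at an unadjusted p under 0.05. Summed FPKM of the acute phase markers was between 3514 and 4928 in LD and between 3703 and 7970 in ADV, with all 8 markers higher in mean in ADV. Its part in these values was not tested.

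By list, the genes of BMP and SMAD control of hepcidin had 12 of 18 log2 fold changes above 0 in liver with a median of 0.06, and 8 of 16 in kidney with a median of 0.01. None of them passed even an unadjusted p under 0.05 in either organ. The largest in liver were Atoh8 at −0.43 and Bmp5 at 0.37, and in kidney Smad6 at 0.37 and Furin at −0.32. With median-ratio scaling of the livers Acvr2a, Bmpr1a, Id1, Neo1, Smad5 and Smad6, among others, fell from above 0 to below it. They then lay between −0.09 for Id1 and −0.003 for Smad5, so that the liver count above 0 depended on the scaling. Without A115, Smad6 had 0.79 and Furin, the lowest of whose ADV kidneys was 5.31 FPKM, turned to 0.47 (limma, adjusted p = 0.0130 and 0.0132), where 18.8% of all genes were called. With median-ratio scaling in addition Smad6 had 0.59 (limma, adjusted p = 0.0301) and Furin 0.28 (adjusted p = 0.0806). In that fit 3 genes of the list were called lower, where 8.06% of all genes were called higher and 7.9% lower. The 3 were the receptor genes Acvr2a at −0.66, Bmpr1a at −0.41 and Bmpr2 at −0.67 (limma, adjusted p = 0.0394, 0.0423 and 0.0469). In the cytokine list the median was 0.14 over 10 genes in liver, with Il1b at 0.47. In kidney it was −0.02, with Socs3 at 1.25 and Creb3l3 at −0.35. Without A115 the kidney median was 0.27, with Socs3 at 1.54 and Creb3l3 at −0.06. With median-ratio scaling in addition it was 0.08, and Jak1 and Jak2 were called lower, where 7.9% of all genes were. In the list of uptake and export the median was 0.28 over 14 genes in liver and 0.23 over 17 in kidney, where Lcn2 had 1.27 and Steap4 0.61. Without A115 the kidney median was 0.11, Lcn2 had 0.79 and Steap4 0.41, and with median-ratio scaling in addition the median was −0.09.

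For storage, chaperones and control by iron regulatory proteins the median was −0.05 over 9 genes in liver, with Pcbp2 at −0.26 and Herc2 at −0.22, and −0.14 in kidney, where 8 of 9 lay below 0. Without A115 the kidney median was −0.08 with 6 of 9 below 0, and with median-ratio scaling in addition −0.27 with 8 of 9. In this list Ncoa4, the receptor that delivers ferritin for degradation, was 25.3, 24.9, 24.5 and 24.4 FPKM in the LD kidneys and 19.9, 21.3, 18.5 and 15.6 FPKM in the ADV kidneys. Every ADV kidney was below every LD kidney, as for 1.83% of all genes, and the log2 fold change was −0.40 (limma, unadjusted p = 0.0193, adjusted p = 1.0). Ireb2, which encodes IRP2, had −0.34 in kidney. The lists of haem scavenging, haem synthesis and mitochondrial iron had medians of 0.26, −0.01 and 0.03 in liver and −0.07, −0.04 and −0.13 in kidney. Named by size, they held Hpx at 0.53, Uros at 0.38 and Hscb at 0.47 in liver, and Hp at 1.39, Cd163 at 0.72, Fech at −0.33, Alas2 at 0.31, Isca2 at 0.35 and Nfs1 at −0.33 in kidney. Without A115 the kidney medians of these lists all turned positive, at 0.37, 0.41 and 0.18. Hp then had 1.76, Cd163 0.84, Fech −0.25, Alas2 0.57, Isca2 0.20 and Nfs1 0.16. With median-ratio scaling in addition the medians were 0.18, 0.21 and −0.01, and Alas2 had 0.38, Isca2 0.01 and Nfs1 −0.04.

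In kidney 0 of 89 genes of the lists passed adjustment (limma), with Scara5 higher and Fech and Ncoa4 lower at an unadjusted p under 0.05, against 1.75% higher and 1.35% lower among all genes, of which 0 passed adjustment. Without A115, 15 were higher and 4 lower at an adjusted p under 0.05, where 16.1% of all genes were higher and 2.68% lower. The genes called were, among others, Alad, Fdxr, Furin, Glrx5, Lrp1, Mfsd12, Pcbp1, Ppox, Slc22a17, Slc25a28, Slc46a1, Slc48a1, Smad6 and Urod higher, and Ireb2, Lyrm4, Ncoa4 and Steap2 lower. With median-ratio scaling in addition there were 7 higher and 12 lower, against 8.06% and 7.9% of all genes, so that the balance of directions depended on the scaling. The 7 higher were then Fdxr, Lrp1, Mfsd12, Ppox, Slc22a17, Slc48a1 and Smad6, and the 12 lower were Acvr2a, Bmpr1a, Bmpr2, Bola3, Fech, Hif1a, Jak1 and Jak2 beside the 4 named above.

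Between the organs, 20 of the 86 genes of the lists that passed the filter in both were higher in liver and 42 higher in kidney at an adjusted p under 0.05 (limma). Over all such genes these shares were 12.1% and 59.1%, as above. Counts and names in this comparison are with the deposited scaling. All genes then had a median log2 fold change of −0.75, against −0.03 with median-ratio scaling. Calls of genes with a smaller difference than that, such as Aco1 at −0.45, may depend on the scaling. In the list of BMP and SMAD control 3 were higher in liver and 9 higher in kidney, and in the cytokine list 2 and 3. Another 6 genes passed the filter in a single organ and are left out of these counts, Tmprss6, Hfe2 and Hpx in liver and Cubn, Steap1 and Slc22a17 in kidney. Tmprss6, the protease that restrains hepcidin, was 128 ± 9.21 FPKM in liver and 0.0350 ± 0.0334 in kidney, and Hfe2, which encodes the BMP co-receptor hemojuvelin, was 20.8 ± 4.17 and 0.00315 ± 0.00890 (SD, n = 8). Of the genes counted, those higher in liver were, among others, Alas1, Alas2, Atoh8, Blvrb, Bmp2, Bmp5, Cd163, Cp, Creb3l3, Epas1, Fdx1, Hp, Il6ra, Lrp1, Scara5, Slc11a1, Slc39a14, Steap3 and Steap4. The endocytic receptors Lrp2 and Cubn, which take up filtered proteins in the proximal tubule, had means of 129 and 45.3 FPKM in kidney and of 0.0501 and 0.00416 in liver. Id1, a target gene of BMP signals, was 4.04 ± 1.33 FPKM in liver and 16 ± 3.35 in kidney (SD, n = 8; log2 fold change of liver over kidney −1.98, limma adjusted p = 1.83e-07). The other genes counted as higher in kidney included Abcg2, Aco1, Blvra, Bmpr1a, Bmpr2, Bola3, Fbxl5, Fkbp1a, Flvcr1, Flvcr2, Heph, Herc2, Hif1a, Hmox1, Hmox2, Hscb, Inhbb, Isca1, Isca2, Iscu, Jak1, Jak2, Lyrm4, Ncoa4, Neo1, Nfs1, Nfu1, Pcbp1, Pcbp2, Slc11a2, Slc25a28, Slc39a8, Slc48a1, Smad4, Smad5, Smad6, Smad7, Steap2 and Uros.

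Whether Hamp varied among the livers with signals that control it was examined over 8 livers in 5 relations, with exact permutation p and Benjamini-Hochberg adjustment over the 5. Id1 was 3.75, 4.16, 3.0 and 4.80 FPKM in the LD livers and 3.48, 2.9, 6.94 and 3.28 FPKM in the ADV livers, and was highest in A94, the liver with the lowest Hamp. Pearson's r between Hamp and Id1 was −0.80 (exact permutation p = 0.0215, adjusted p = 0.107) and Spearman's rho was −0.60 (exact permutation p = 0.132, adjusted p = 0.331). Without A94 and L104, the livers farthest from the median of Id1, r was −0.44. It was −0.43 without A94 alone and −0.84 without L104 alone, so that the relation rests on A94. With Bmp6 r was 0.30 and rho 0.60 (exact permutation p = 0.459 and 0.132, adjusted p = 0.765 and 0.331), with 0.62 for r without A75 and A94. Without A75 alone r was 0.83 and rho 0.93 (exact permutation p = 0.0212 and 0.00675, adjusted p = 0.0804 and 0.0337), so that the rank relation with Bmp6 depended on that liver. With Smad7 r was −0.55 and rho −0.31 (exact permutation p = 0.162 and 0.462, adjusted p = 0.406 and 0.536), and r was −0.10 without A75 and A94. With Socs3 r was −0.05 and rho 0.33 (exact permutation p = 0.915 and 0.428, adjusted p = 0.915 and 0.536), and r was −0.64 without A75 and L86. With Saa1 r was 0.17 and rho 0.26 (exact permutation p = 0.697 and 0.536, adjusted p = 0.871 and 0.536), and r was −0.27 without A75 and L63. Without A94 alone r was 0.54 for Socs3 and 0.74 for Saa1 (exact permutation p = 0.212 and 0.0508, adjusted p = 0.530 and 0.254). Without A75 alone r was −0.22 for Socs3 and −0.03 for Saa1. None of the 5 passed adjustment over all 8 livers with the deposited scaling, and none was computed within a condition, as each held 4 mice.

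As a description, the genes whose level was most like that of a member over the 8 libraries of an organ were ranked by Pearson's r on the log2 scale, where all genes of a library share its depth. For Hamp in liver these were Mreg, Slc6a13, Mapkapk5, Cd207 and Mocs1, with r from 0.978 to 0.945 among 12834 genes. For Tfrc in liver they were Pak1ip1, Nmnat3, AI464131, AB349738 and 1700096K18Rik, and for Slc40a1 in liver Fcna, Tspan18, Gmpr, Igip and Zfx, all with r of at least 0.95. In kidney they were Tmprss13, Magef1, Glul, Cecr2 and Fzd6 for Tfrc, and Tfdp1, Tex10, Trip13, Trim5 and Immp2l for Slc40a1.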

How the data were processed

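Poly(A) RNA of liver and kidney from 4 LD and 4 ADV mice was sequenced as 16 libraries. The authors trimmed reads with Trimmomatic, mapped them to GRCm38/mm10 with STAR (2.5.4b in the submitters' processing notes), removed reads of mapping quality under 10 and counted, with Homer, over the exons of canonical UCSC genes. The deposited values are FPKM (RPKM in the column names), scaled within each library to the total in its column name. Whether counting used strand is not given in the sources used here. Depth was between 15688495 and 24285055 fragments on genes, and floors cover counting error only.

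Genes with a mean above 0.5 RPM were tested with limma 3.58.1 (R 4.3.3, eBayes with trend) on log2(FPKM + 0.1), two-sided, with Benjamini-Hochberg adjustment over all genes tested. Organs were fitted apart, and all 16 libraries together for comparisons between organs, where only genes past the filter in both organs are counted, a restriction made after the values were seen. Exact permutation tests of ADV against LD ran over 70 assignments of mice, and those of the relations with Hamp over pairings of livers. The mouse numbers pair liver and kidney of an animal, whose deviations from the group means correlated between −0.02 and 0.55 across genes. The fits were tested on simulated data. Alternatives were other pseudocounts, filters and scalings, limma-voom on recovered fragments, the mouse as a block, and leaving out each mouse.

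The members, lists and tests were chosen with earlier results of these data known. Named were the members, list genes past adjustment, the 2 largest changes of each list and organ, the genes of the relations and the 5 genes most like Hamp, Tfrc and Slc40a1. Cp, Hmox2, Slc25a28 and Scara5 fall outside that rule and are named as members of counts of 5 or fewer, after their values were seen. Some list genes are counted but not reported here by name. Mice of a condition are separate animals.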

Additional observations from a re-analysis of the deposited data

Results flagged for a closer look

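Within each group of 4 libraries the highest and lowest value of each gene was compared with Dixon's 95% critical value, in 37 groups, and 4 values stood apart, where chance marks about 1 group in 20. For 1 of the 4, Hamp2 in kidney, this follows from the construction, since the other values were 0, and it says nothing against chance. Ftl1 in the kidney of A115 was 58.3 FPKM, against 1895 to 2584 in the other ADV kidneys, in the library described above whose deviations went with GC content. Bmp6 in the kidney of L86 was 27.4 FPKM, against 18.8 to 19.5 in the other LD kidneys. Hfe in the liver of A94 was 27.2 FPKM, against 25.1 to 25.4 in the other ADV livers. Hamp2 in the kidney of A94 was 0.117 FPKM, which is 1 fragment, against 0 in the other ADV kidneys.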

How the results depend on the processing

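Of 719 alternative values, 671 kept their direction and side of the threshold, or stayed within 1.5 times for a count, and no member lost a call. Without a filter on low values 6 genes were called in liver (1 as reported) and 3 in the difference between organs (0 as reported), where median-ratio scaling gave 1. In kidney 2 genes were called with both organs in 1 fit, and 2309 without A115 and with median-ratio scaling (0 as reported). That setting gave Slc40a1 −0.15 and Ftl1 0.51 in kidney. Median-ratio scaling gave Fth1 −0.0921 in liver, Tfrc 0.69 between organs (9824 genes called, 4642 higher in liver and 5182 higher in kidney, against 1969 and 9266) and −0.0449 in the difference, Socs3 an r of 0.0192 with Hamp, and 1 relation of 5 past adjustment, Id1, with an r of −0.81. Quantile normalization gave Trf 0.12 in liver, and limma-voom gave Tfr2 −0.19 in kidney. The cause of these shifts was not tested.

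Without single mice, the genes called ranged from 0 to 9 in liver (9 without A91, 0 without L65, L104 or A75), from 0 to 2724 in kidney and from 0 to 411 in the difference, the highest both without A115, and members called in kidney from 0 to 2. Log2 fold changes ranged in liver from −0.25 to 0.28 for Hamp, −0.17 to 0.0510 for Trf, −0.0694 to 0.0991 for Fth1 and −0.17 to 0.0771 for Ftl1. In kidney they ranged from −0.18 to 1.12 for Tfr2, −0.0307 to 0.16 for Slc40a1 and −1.11 to 0.71 for Ftl1, and between organs from −0.0801 to 0.80 for Ftl1. In the difference they ranged from −0.39 to 0.0544 for Hfe, −0.0889 to 0.20 for Tfrc and −0.73 to 1.04 for Ftl1. The r with Hamp ranged from −0.26 to 0.54 for Socs3 and −0.0326 to 0.74 for Saa1. With the mouse as a replicate block (correlation 0.0961), 6 members and 11419 genes differed between organs (11235 without it) and 0 members and 0 genes in the difference, so that the pairing changed no member's call. LD and ADV mice are different animals, and their comparison has no pairs. Hamp and Hamp2 in kidney lay under the limit of 3 fragments.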

Other observations

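The clock output gene Dbp, a transcription factor with a strong daily rhythm in liver, is given beside Hamp2 as values, chosen after both had been seen. Dbp was 28.6, 22.0, 13.4 and 8.25 FPKM in the livers of L63, L65, L86 and L104, in the same falling order as Hamp2, which was 25, 17.9, 15.9 and 10.2 FPKM there. In the ADV livers Dbp was 2.4, 37.8, 33.7 and 1.33 FPKM in A75, A91, A94 and A115, with Hamp2 at 9.60, 52.2, 3.34 and 2.04 FPKM. For both genes A91 was the highest and A115 the lowest of the 8 livers, and A94 was high in Dbp and low in Hamp2. Arntl, which encodes BMAL1, was 0.700, 1.3, 2.5 and 3.95 FPKM in the LD livers and 5.91, 1.06, 0.723 and 6.72 FPKM in the ADV livers, opposite in order to Dbp in the LD livers. Hamp was 309, 358, 509 and 377 FPKM in the LD livers and did not share this order. Organs were collected over a span of hours after light onset, and the time of each mouse is not given in the sources used here.

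Erythroid markers in the libraries also varied. Their summed FPKM in kidney was between 158 and 352 in LD and was 637, 348, 832 and 114 in A75, A91, A94 and A115. In liver it was between 172 and 251 except in A94, where it was 394. Lcn2 in kidney was 191 FPKM in A75 and 141 in A115, and between 11.4 and 54.9 in the other 6 kidneys.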
